A study of Mus musculus with 6 samples.

Results

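This account follows 37 genes that mark macrophages and other myeloid cells, taken as a list of symbols, with no threshold on their values. Each was looked up in a table of 23152 genes on microarrays of mouse soleus. Of the 37 symbols, 36 matched 354 probe sets annotated to exactly 1 gene, with 3 to 28 probe sets each, and 1 matched none and was not analysed here. Probe sets of a gene were averaged, on the log2 scale, within each array.

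The soleus is a slow, oxidative hindlimb muscle. The 3 knockout mice (MKO) were Ckmm-Cre; Gna13 flox/flox, in which the promoter of muscle creatine kinase drives Cre recombinase and loxP sites flank part of Gna13. The 3 control mice (WT) carried the same floxed alleles and no Cre. All were male, 18 weeks old and fasted for 14 h, with 1 array per mouse, and the mice were separate animals per the labels. Gna13 encodes Gα13, a G protein subunit that couples cell surface receptors to the small GTPase RhoA. The Ckmm promoter is active in striated muscle fibres, and macrophages are not a target of it.

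Macrophages live in the connective tissue between muscle fibres, where they clear dying cells, take up debris and steer repair. They depend on the growth factor receptor Csf1r, recognise targets through scavenger, lectin and Fc receptors, tag them with complement C1q, and degrade them in lysosomes. Fragments are shown to T cells on MHC class II molecules, which the chaperone Cd74 guides through the cell. Monocytes enter tissue from blood through the chemokine receptor Ccr2, while many resident macrophages carry Mrc1 and Cd163.

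The arrays correlated with Pearson r between 0.978 and 0.987 within groups, over all genes. The 14 muscle fibre genes checked, among them Myh7 and Acta1, had mean log2 values between 7.67 and 12.55, all above the median gene (4.41) on every array. For Gna13 the mean of 7 probe sets differed by 0.04 (SE 0.13), and its probe sets went both ways. Probe set 17257825 read 3.43, 4.25 and 4.33 in MKO against 5.48, 6.23 and 6.16 in WT. On 17257824, 17257828 and 17257829 all MKO arrays lay above all WT arrays, with differences of 0.65, 0.51 and 0.67, as held for 4.81% of all rows, and on the other 3 the groups overlapped. Which exon a probe set lies in was not given, and one that lies outside the deleted exons is no check of the knockout.

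None of the 36 macrophage and myeloid genes passed the threshold in MKO, and most differed little. At an adjusted p under 0.05 (limma, Benjamini-Hochberg over all genes), 0 of the 36 passed, against 0% of all genes, and the adjusted p was 0.9997 for every one of the 36. At an unadjusted p under 0.05, 4 were lower in MKO, or 11.1% of the 36 against 2.41% of all genes: Cd68, Fcer1g, Mpeg1 and Msr1. At that level 0 of the 36 were higher, against 1.92% of all genes. The genes were chosen with earlier results of these data known, so these shares describe the list and test nothing. The local pooled error test named in the study's design text, as re-implemented here, also passed 0 of the 36 after adjustment, against 0.0993% of all genes. At an unadjusted p under 0.05 it gave 3 that were lower, against 1.88% of all genes.

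The median log2 difference, MKO minus WT, was −0.10 over the 36 genes and −0.01 over all genes. Of the 36, 23 were lower and 13 higher, or 63.9% lower, against 53.4% of all genes. For 28 the difference was under 0.2 in size, and for 32 the 95% interval held 0. For 35 the interval lay within 1 log2 unit of 0, and Cd68 was the exception. In whole muscle, a difference in macrophage number and one in RNA per macrophage cannot be told apart, and neither was tested here.

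**Figure D1:**
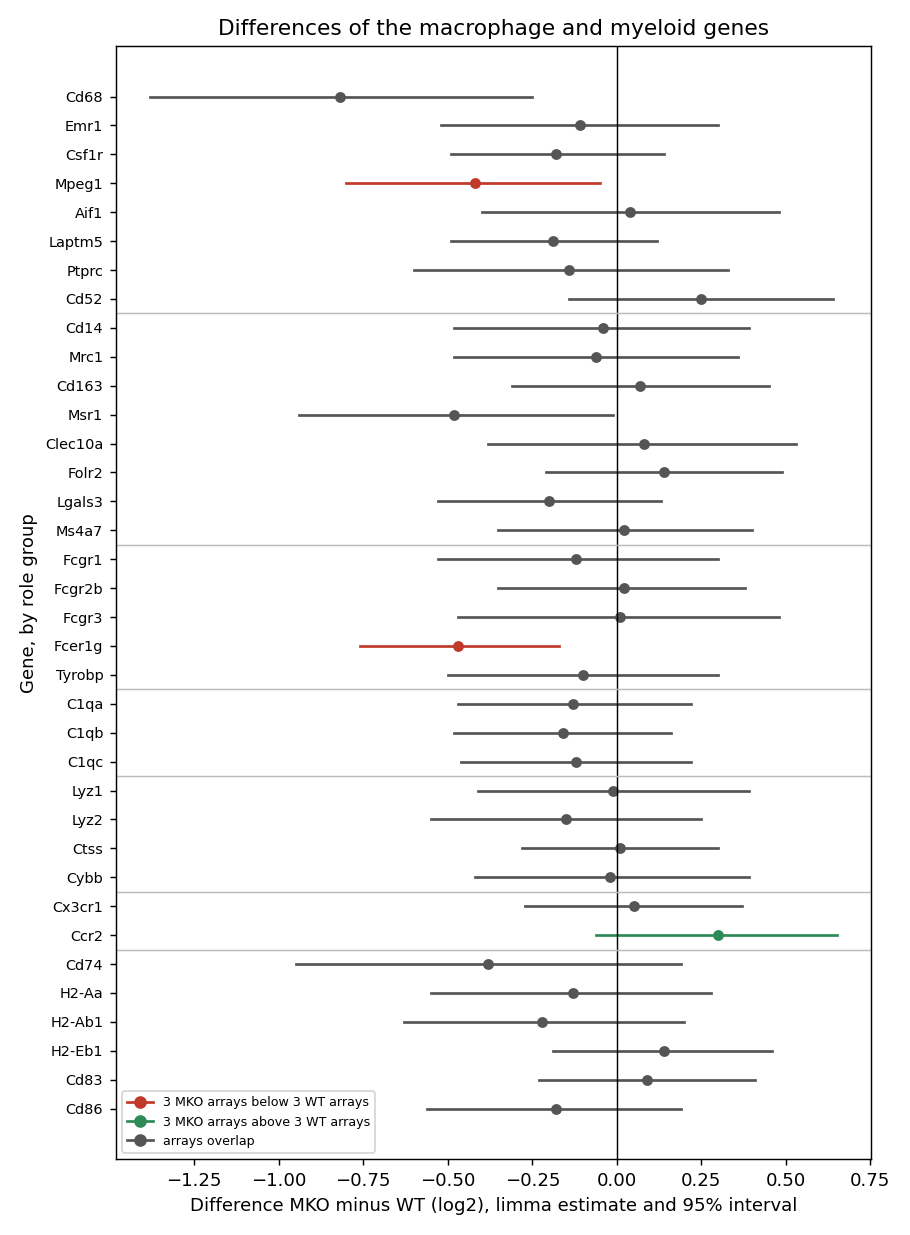
Differences of the 36 genes, MKO minus WT on the log2 scale (x axis), by role group (y axis). Points are limma estimates from 3 arrays per group and bars are 95% intervals; red and green mark genes whose arrays do not overlap between groups, and the interval of Cd68 reaches down to −1.38.

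Cd68, a glycoprotein of macrophage lysosomes and a standard stain for these cells, had the largest difference of the 36. Its log2 values were 5.24, 5.58 and 6.06 in MKO, against 6.36, 7.08 and 5.89 in WT. The groups overlapped, since MKO replicate 3 lay above WT replicate 3. The means were 5.63 ± 0.41 in MKO and 6.44 ± 0.60 in WT (SD, n = 3). MKO was 1.76-fold lower, at −0.82 (SE 0.26, 95% interval −1.38 to −0.25), with an adjusted p of 0.9997 from limma. Without WT replicate 2, its highest array, the difference was −0.50.

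All 8 probe sets of Cd68 were lower in MKO, with differences of −1.26 to −0.52 on the log2 scale. Of the 1078 genes with that number of probe sets, 21, or 1.95%, had every probe set lower. That share covers genes with any mean difference, while Cd68 had the largest of the 36. On 4 of the Cd68 probe sets all 3 MKO arrays lay below all 3 WT arrays, as held for 5.05% of all rows. On the brightest of these, 17264837, the values were 6.45, 7.05 and 7.14 in MKO, against 7.17, 7.92 and 7.45 in WT.

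Fcer1g had the smallest p of the 36. It encodes the common gamma chain, a small adaptor that carries the signal of activating Fc receptors into the cell. Its values were 4.97, 4.83 and 5.0 in MKO, against 5.46, 5.45 and 5.29 in WT. The 3 MKO arrays all lay under the 3 WT arrays, as held for 4.99% of all genes. The difference was −0.47 (SE 0.14), 1.38-fold lower, with a 95% interval of −0.76 to −0.17. Its widest difference was on probe set 17229662, at 2.94, 2.07 and 4.14 in MKO against 4.70, 4.56 and 4.47 in WT. With the median of the 6 probe sets the difference was −0.18, and with brighter probe sets only it was −0.04.

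Mpeg1, which encodes perforin-2, a pore-forming protein of macrophages, was the other gene whose 3 MKO arrays lay below the 3 WT arrays. It stood at 3.26, 3.28 and 3.57 in MKO, against 3.69, 3.97 and 3.72 in WT, a difference of −0.42 (SE 0.17, 95% interval −0.80 to −0.05). It was no longer at an unadjusted p under 0.05 without MKO replicate 1, MKO replicate 2 or WT replicate 2, with differences of −0.37, −0.38 and −0.34. Its mean lay below the median gene (4.41). Of its 4 probe sets 3 were lower, and the brightest of them, 17357813, read 4.76, 4.81 and 4.70 in MKO against 6.04, 5.40 and 5.56 in WT.

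Ccr2, the receptor that brings monocytes out of blood, lay on the other side of 0. It stood at 3.52, 3.41 and 3.40 in MKO, against 3.27, 3.09 and 3.08 in WT. It was the only one of the 36 genes whose 3 MKO arrays lay above the 3 WT arrays, as held for 4.26% of all genes. The difference was 0.30 (SE 0.16, 95% interval −0.06 to 0.65), and 7 of its 8 probe sets were higher. With probe sets above the median level only, the difference was −0.22. The mean of Ccr2 lay below the median gene (4.41).

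**Figure D2:**
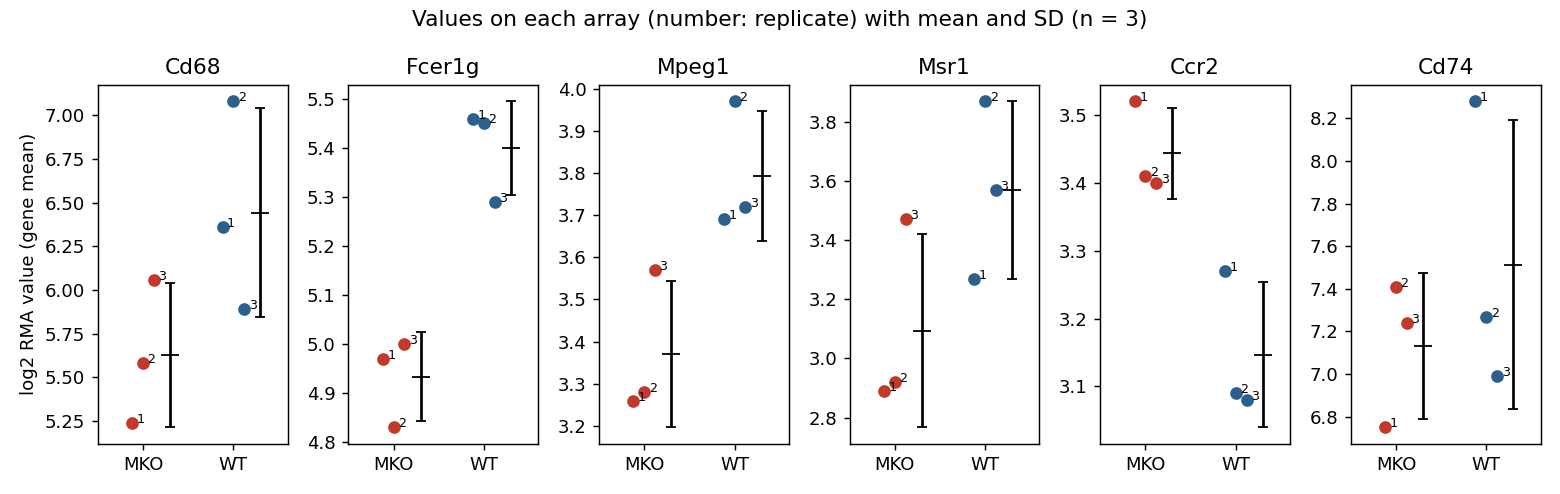
Log2 values of 6 genes on each array (y axis, separate range per gene), MKO left and WT right; numbers give the replicate, and the bar beside each group is the mean with SD (n = 3). The groups lie apart for Fcer1g, Mpeg1 and Ccr2 and overlap for Cd68, Msr1 and Cd74.

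To show the regulatory sequence next to these genes, the 250 bases before the start of Cd68, Fcer1g and Ccr2 are given 5′ to 3′ on the gene's own strand, from RefSeq on build GRCm38.p6. They stand for the 2 smallest p-values and for the largest difference on the other side of 0. Capitals mark GAGGAA or its reverse complement TTCCTC, a longer purine-rich form of the GGAA core that ETS-family factors bind. The windows are Cd68 at chr11:69666171-69666420 (minus strand), Fcer1g at chr1:171234350-171234599 (minus strand) and Ccr2 at chr9:124101933-124102182 (plus strand).
Cd68: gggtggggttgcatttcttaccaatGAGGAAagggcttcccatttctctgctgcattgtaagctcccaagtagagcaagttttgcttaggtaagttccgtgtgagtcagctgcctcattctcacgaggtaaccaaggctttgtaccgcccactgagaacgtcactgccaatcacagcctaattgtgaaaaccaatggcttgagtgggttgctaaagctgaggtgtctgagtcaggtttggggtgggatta
Fcer1g: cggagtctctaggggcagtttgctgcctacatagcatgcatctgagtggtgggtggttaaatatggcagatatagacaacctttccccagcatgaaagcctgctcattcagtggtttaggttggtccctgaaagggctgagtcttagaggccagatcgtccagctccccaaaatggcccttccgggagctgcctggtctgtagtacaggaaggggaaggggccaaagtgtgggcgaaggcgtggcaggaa
Ccr2: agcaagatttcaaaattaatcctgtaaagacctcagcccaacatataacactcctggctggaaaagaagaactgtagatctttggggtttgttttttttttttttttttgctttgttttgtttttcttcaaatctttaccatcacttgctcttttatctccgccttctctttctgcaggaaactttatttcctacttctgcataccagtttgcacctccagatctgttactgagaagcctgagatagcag
The motif occurred once in the Cd68 window and in neither of the others. The shorter GGAA, which was not marked or counted, occurs in the Fcer1g and Ccr2 windows too. RefSeq windows were at hand for 24 of the 36 genes, and 11 of their 28 windows, or 39.3%, held the motif on either strand, against 23.3% of all 32851 windows. A match is a description of the letters and not a binding site.

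Beyond Cd68 and Mpeg1, the genes of macrophage identity scattered around no difference. Emr1, now named Adgre1, the adhesion receptor used as a surface marker of mouse macrophages, stood at 4.16, 4.16 and 4.46 in MKO, against 4.73, 4.10 and 4.25 in WT, a difference of −0.11 (SE 0.19). Csf1r, the receptor for the macrophage growth factor CSF1, stood at 5.27, 5.36 and 5.11 in MKO, against 5.62, 5.28 and 5.38 in WT, a difference of −0.18 (SE 0.15). Ptprc, the pan-leukocyte antigen CD45, stood at 3.53, 3.99 and 4.05 in MKO, against 4.29, 4.10 and 3.58 in WT, a difference of −0.14 (SE 0.21). In all 3 genes WT replicate 1 was the highest array and the groups overlapped.

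In the same group, Laptm5, a lysosomal membrane protein of blood cells, differed by −0.19 (SE 0.14). Cd52, a small leukocyte surface glycoprotein, was the highest of the identity genes at 0.25 (SE 0.18), with 5 of 6 probe sets higher. Aif1, the calcium-binding protein IBA1 used to stain macrophages and microglia, differed by 0.04 (SE 0.20). With the median of its probe sets Aif1 stood at −0.68.

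Of the 8 scavenger, lectin and endocytic receptors, 4 were lower and 4 higher, with a median of −0.01. Msr1, the class A scavenger receptor that takes up modified lipoproteins, stood at 2.89, 2.92 and 3.47 in MKO, against 3.27, 3.87 and 3.57 in WT. MKO replicate 3 lay above WT replicate 1, so the groups overlapped. The difference was −0.48 (SE 0.21, 95% interval −0.94 to −0.01), and it was 0.41 with probe sets above the median level only. Only probe set 17508854 lay above that level. Of the 10 probe sets of Msr1, 7 were lower and 3 higher, and the gene's mean lay below the median gene (4.41). Without MKO replicate 1 (−0.38), MKO replicate 2 (−0.39), WT replicate 2 (−0.33) or WT replicate 3 (−0.48) the unadjusted p was above 0.05.

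Mrc1 and Cd163, both found on resident muscle macrophages, differed little. Mrc1, the mannose receptor CD206, stood at 4.71, 4.88 and 4.94 in MKO, against 5.38, 4.67 and 4.66 in WT, a difference of −0.06 (95% interval −0.48 to 0.36). Cd163, which takes up haemoglobin bound to haptoglobin, stood at 4.9, 5.39 and 5.48 in MKO, against 5.38, 5.01 and 5.17 in WT, a difference of 0.07 (95% interval −0.31 to 0.45). The WT arrays lay inside the MKO range in Cd163, while WT replicate 1 alone was high in Mrc1.

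The other receptors of this kind lay between −0.20 and 0.14. They were Lgals3, the galectin of phagocytes (−0.20, SE 0.15), and Cd14, which hands bacterial lipopolysaccharide to Toll-like receptors (−0.04, SE 0.20). Folr2, a folate receptor found on resident macrophages, differed by 0.14 (SE 0.16), Clec10a, a galactose-binding lectin, by 0.08 (SE 0.21), and Ms4a7, a membrane protein of macrophages, by 0.02 (SE 0.17).

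The other genes of the Fc receptor group differed by 0.12 or less in size. Fcgr1, the high-affinity receptor for IgG that needs the common gamma chain, differed by −0.12 (SE 0.19). Fcgr3, another activating receptor, differed by 0.01 (SE 0.22), and Fcgr2b, the inhibitory receptor, by 0.02 (SE 0.17). Fcgr2b and Fcgr3 are closely related in sequence, and their probe sets may share signal. Tyrobp, which encodes the adaptor DAP12, differed by −0.10 (SE 0.18), with MKO arrays at 5.01, 4.74 and 4.32 on both sides of WT arrays at 4.84, 4.65 and 4.89.

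The 3 C1q chains, which assemble into the recognition unit of the classical complement pathway, were all slightly lower. C1qa stood at 5.62, 5.45 and 5.18 in MKO, against 5.49, 5.38 and 5.77 in WT, a difference of −0.13 (SE 0.16). C1qb differed by −0.16 (SE 0.15) and C1qc by −0.12 (SE 0.16). The groups overlapped in each, and the 95% intervals reached from −0.48 to 0.22 at their widest. Without an array, or under another processing, none of the 3 changed sign.

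Lysosomal and antimicrobial enzymes differed by 0.15 or less in size. Lyz2, the lysozyme of macrophages, stood at 5.15, 5.37 and 5.07 in MKO, against 5.77, 5.05 and 5.22 in WT, a difference of −0.15 (SE 0.18). WT replicate 1 was its highest array, and the other 5 lay between 5.05 and 5.37. Lyz1, a close copy of Lyz2 with which its probes may share signal, differed by −0.01 (SE 0.18). Ctss, the cysteine protease that trims the class II chaperone, differed by 0.01 (SE 0.13), and Cybb, the catalytic subunit of the phagocyte NADPH oxidase, by −0.02 (SE 0.19). Cx3cr1, the fractalkine receptor and the partner of Ccr2 in the chemokine receptor group, differed by 0.05 (SE 0.15).

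Of the 6 genes of MHC class II and costimulation, 4 were lower, with a median of −0.16, and WT replicate 1 was the highest array for 3 of them. Cd74, the invariant chain, stood at 6.75, 7.41 and 7.24 in MKO, against 8.28, 7.27 and 6.99 in WT. WT replicate 1 lay above all other arrays and the remaining WT arrays lay within the MKO range. The difference was −0.38 (SE 0.26, 95% interval −0.95 to 0.19), and it depended on the WT arrays. Without WT replicate 1 it was 0.00, and without WT replicate 3 it was −0.64, where Cd74 was at an unadjusted p under 0.05 and Msr1 was not.

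The class II chains H2-Ab1 and H2-Aa were also highest on WT replicate 1. H2-Ab1 stood at 5.74, 5.98 and 5.94 in MKO, against 6.63, 5.81 and 5.87 in WT, and H2-Aa at 4.73, 4.66 and 4.56 in MKO, against 5.19, 4.40 and 4.75 in WT. Their differences were −0.22 (SE 0.19) and −0.13 (SE 0.19). H2-Eb1, the beta chain of the other class II molecule, was higher at 0.14 (SE 0.15), and WT replicate 1 was not its highest array. The costimulatory molecule Cd86 differed by −0.18 (SE 0.17) and Cd83, a marker of activated antigen-presenting cells, by 0.09 (SE 0.15).

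**Figure D3:**
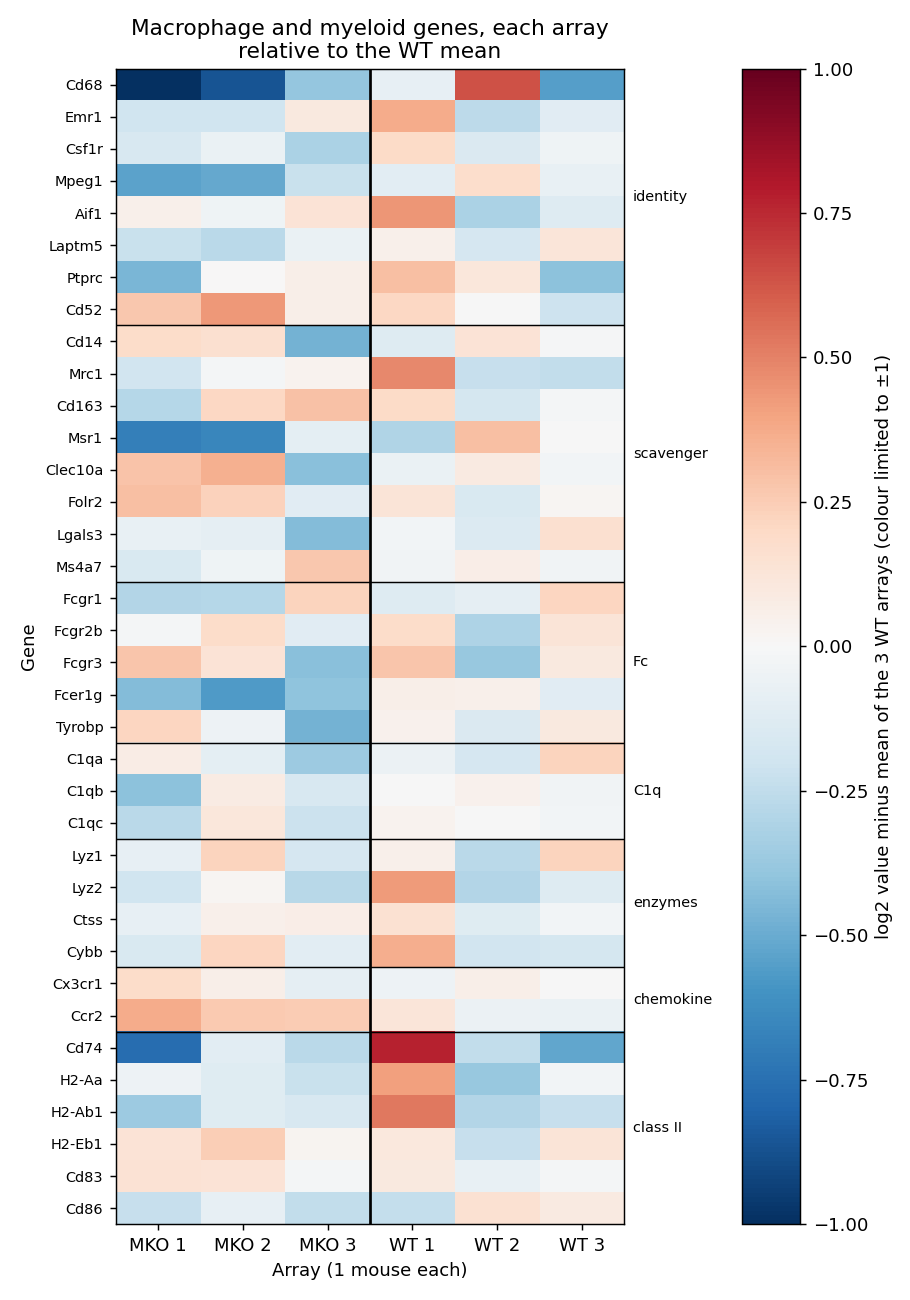
Each of the 36 genes (rows, by role group) on each array (columns, MKO left of WT), as log2 value minus the mean of the 3 WT arrays; colour is limited to ±1. The WT 1 column is red for Cd74, H2-Ab1, Mrc1 and Lyz2, and Ccr2 is red on all 3 MKO arrays.

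WT replicate 1 was the highest of the 6 arrays for 12 of the 36 genes, among them Emr1, Csf1r, Ptprc, Mrc1, Cd74 and Lyz2, and the lowest for 0. Over all genes it was the highest for 13.5% and the lowest for 12.4%. WT replicate 2 and MKO replicate 1 were each the lowest for 11 of the 36 genes, against 15.8% and 24.0% of all genes. Averaged over the 36 genes and set against the WT mean, the arrays stood at −0.14, −0.03 and −0.13 in MKO, against 0.13, −0.08 and −0.05 in WT. MKO replicate 2 lay above WT replicates 2 and 3, so the groups overlapped. Without WT replicate 1 the median difference of the 36 genes was 0.02 and 14 were lower. The same 4 genes were at an unadjusted p under 0.05 without that array, with Cd68 at −0.86 and Fcer1g at −0.43.

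Probe sets of the same gene often pointed both ways. Of the 354, 201 were lower, against 51.3% of all rows, and 153 higher in MKO. They included 13 lower and 7 higher at an unadjusted p under 0.05, against 2.8% of all rows lower and 2.2% higher. At an unadjusted p under 0.01 there were 4 of the 354, in either direction, against 0.918% of all rows. With limma over all rows, 0 of the 354 passed after adjustment, against 0% of all rows. In 34 of the 36 genes some probe sets were higher and some lower. The exceptions were Cd68 and Cd74, with all 12 Cd74 probe sets lower by 0.10 to 0.89. WT replicate 1 was the highest array on each of these Cd74 probe sets. Without that array the difference of Cd74 was 0.00. The shares of all genes with probe sets both ways, or with all 12 lower, were not counted. Of the 36 genes, 14 had a mean below the median gene, with Mpeg1, Msr1 and Ccr2 among them.

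**Figure D4:**
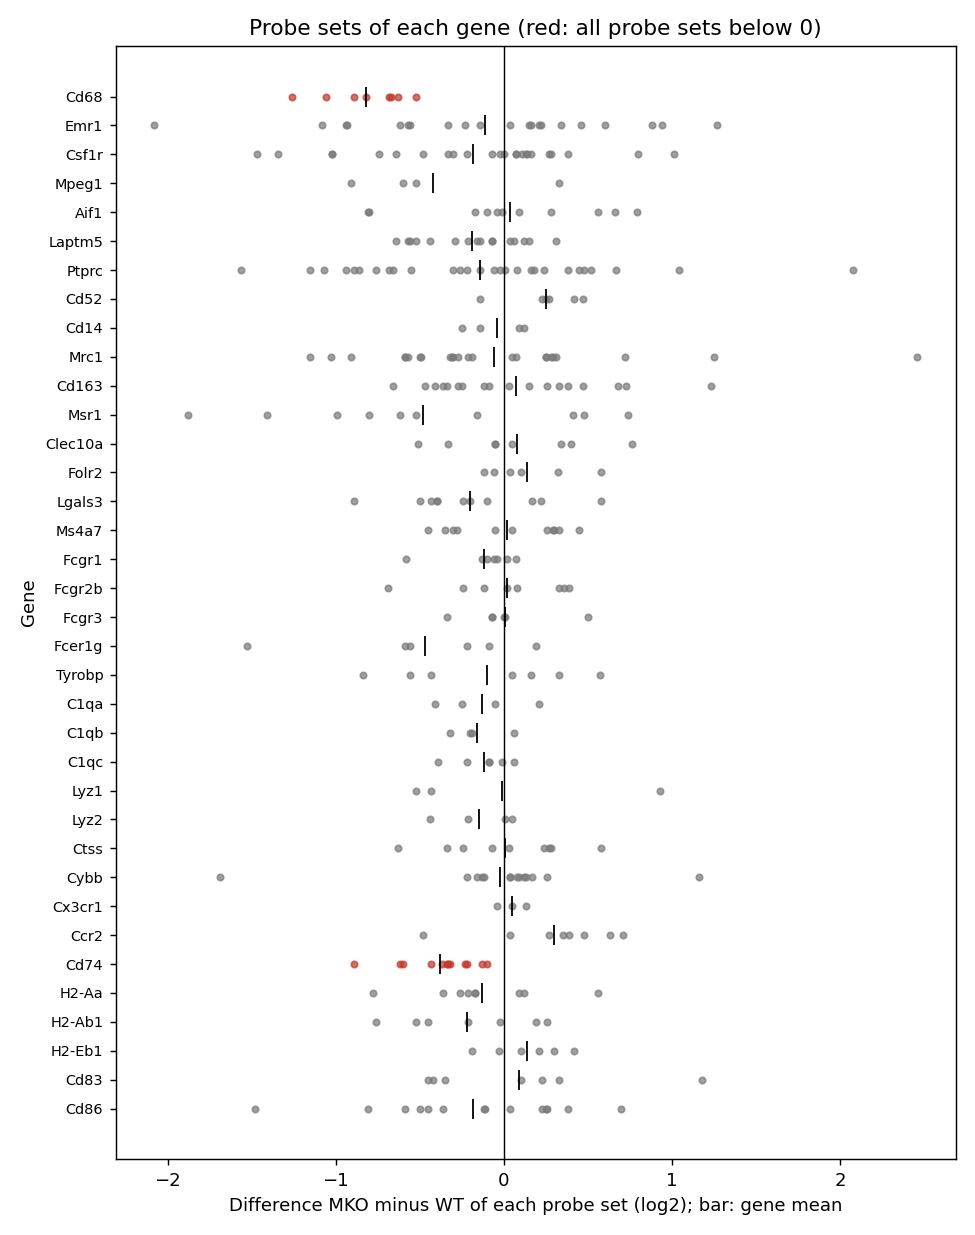
Difference of each of the 354 probe sets, MKO minus WT on the log2 scale (x axis), by gene (y axis); the black bar is the gene's mean. Red marks Cd68 and Cd74, whose probe sets all lie below 0, while Mrc1 and Ptprc reach from below −1 to above 2. WT replicate 1 was the highest array on every Cd74 probe set.

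Further genes of the same cells, listed outside the 37, had 0 past the adjusted threshold. Beside the counts of these lists, 53.4% of all genes were lower, and at an unadjusted p under 0.05 2.41% were lower and 1.92% higher. Of 29 other pan-myeloid genes, 19 were lower, with a median of −0.10. Cyba, the partner of Cybb in the phagocyte oxidase, differed by −0.42 (SE 0.14), and Fcgr4, an activating Fc receptor, by 0.44 (SE 0.19), both at an unadjusted p under 0.05. Fcgr4 read between 2.8 and 3.67, below the median gene (4.41), and Cyba lay above it. Of 21 genes of resident and alternatively activated macrophages, 13 were lower, with a median of −0.08. Chi3l3, a chitinase-like protein of alternatively activated cells, differed by 0.44 (SE 0.17) and Mertk, a receptor for dying cells, by 0.32 (SE 0.14), both at an unadjusted p under 0.05. Chi3l3 read between 3.03 and 3.82, also below the median gene, and Mertk lay above it.

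The ligands that feed or attract macrophages did not stand out. Of 21 growth and recruitment ligands, 14 were lower, with a median of −0.06 and 0 at an unadjusted p under 0.05. Of 20 inflammatory genes, 11 were lower, with a median of −0.02, and the nitric oxide synthase gene Nos2 (−0.40, SE 0.16) was the 1 gene at an unadjusted p under 0.05. Partners of class II presentation (7 of 10 lower, median −0.06) and complement genes beyond C1q (9 of 11 lower, median −0.12) had 0 each at that level.

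Markers of T and NK cells, neutrophils and B cells had medians above 0. Of 12 T and NK cell markers 10 were higher, against 46.6% of all genes, with a median of 0.10. Their 3 genes higher at an unadjusted p under 0.05, against 1.92% of all genes, were Il7r (0.55, SE 0.17), Cd3g (0.41, SE 0.18) and Cd2 (0.39, SE 0.17). These 3 genes read between 2.3 and 3.99, below the median gene (4.41) on every array. The list mean relative to WT was 0.29, 0.14 and 0.08 in MKO, against −0.02, −0.05 and 0.07 in WT. Of 13 neutrophil markers 8 were higher (median 0.11). Their mean was 0.37 on MKO replicate 1, against −0.08 to 0.09 on the other 5 arrays. Among them S100a8 (0.40, SE 0.18) was at an unadjusted p under 0.05. It read between 1.61 and 2.35, also below the median gene. B cell markers (6 of 7 higher, median 0.10) and dendritic cell markers (6 of 10 higher, median 0.00) had 0 at that level, as did mast cell markers (5 of 8 higher, median 0.08).

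Fibroblast and endothelial markers had medians below 0, and in both lists the groups overlapped. Of 10 fibroblast markers 9 were lower (median −0.24), with a list mean of −0.45, 0.02 and −0.17 in MKO, against 0.12, 0.04 and −0.16 in WT. Of 10 endothelial markers 9 were lower (median −0.09), with a list mean of −0.35, −0.14 and 0.02 in MKO, against −0.02, 0.19 and −0.17 in WT. MKO replicate 1 had the lowest mean of both lists. The tight junction gene Cldn5 (−0.73, SE 0.15) and the growth factor receptor gene Pdgfra (−0.34, SE 0.14) were at an unadjusted p under 0.05, 1 of 10 in each list, against 2.41% of all genes. Markers of pericytes and smooth muscle (median −0.03), satellite cells (−0.06), adipocytes (0.03) and Schwann cells (0.18) had 0 genes at an unadjusted p under 0.05. The 2 red blood cell markers measured were lower (median −0.37), with means of −0.42, −0.29 and −0.42 in MKO, against 0.30, −0.37 and 0.08 in WT. The part of these cells in the values of the 36 genes was not tested.

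**Figure D5:**
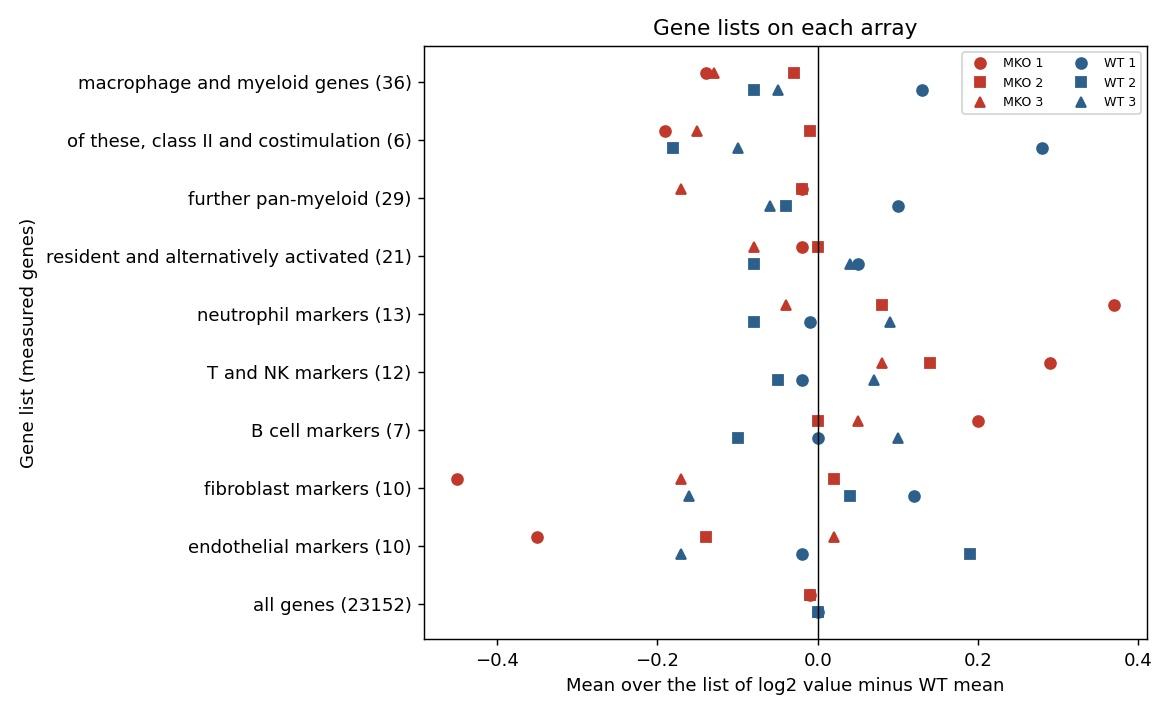
Mean over each gene list of the log2 value minus the WT mean (x axis), for each array (MKO red above WT blue, symbols by replicate) and each list with its number of measured genes (y axis). WT 1 lies to the right for the macrophage and class II lists, MKO 1 to the left for fibroblast and endothelial markers, and all arrays meet near 0 over all genes.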

How the data were processed

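The deposited table held 269751 rows of log2 values from RMA, run by the authors in Affymetrix Expression Console per the submitters' processing notes. RMA corrects background, brings arrays to a common scale and condenses probes into probe sets. The sources used here name no versions and no genome build. The arrays were Affymetrix Mouse Gene 2.0 ST, per the labels. Rows with exactly 1 symbol in the platform's annotation, which is old, numbered 233753; 5106 had several and 30892 none. The median gene had 8 probe sets.

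Genes were tested with limma 3.58.1 in R 4.3.3 (lmFit, then eBayes with a variance trend), two-sided on MKO minus WT, and p-values were adjusted (Benjamini-Hochberg) over the 23152 genes, at 0.05. The unadjusted p-values are from the same fit. Rows were tested likewise over the whole table. Tables and figures were made with Python 3.11.15. Values on each array are given for genes at an unadjusted p under 0.05, with groups apart, among the 3 largest differences, or on a fixed list of defining markers, and for a few others chosen after their values were seen (H2-Ab1, H2-Aa, Tyrobp and single probe sets). The genes and lists were chosen with earlier results of these data known. An exact permutation test of 3 against 3 cannot go below 0.1 two-sided, and the number of arrays limits the precision. On simulated data with the spread of the 23152 genes, limma called 48 of 50 genes lowered by 2 log2 units, 28 of 50 lowered by 1 and 0 of 50 lowered by 0.5. It also called 48 of 50 genes raised by 2 and 5 unchanged genes. All these changes were in the same simulated table, and many true changes ease the Benjamini-Hochberg threshold. The calls therefore do not give the power where few genes change. The simulated noise was independent for each gene and array, with no shift shared by the genes of an array. The main test did not treat replicate numbers as pairs. Alternatives were other moderation, array weights, a replicate block, quantile normalization, median centring, other summaries and filters, the LPE test and each array left out.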

Additional observations from a re-analysis of the deposited data

How the results depend on the processing

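Under each of the 16 alternatives, 0 of the 36 genes passed the adjusted threshold, and the lowest adjusted p was 0.0925, for Cd68 by the re-implemented LPE test. That test passed 23 of all genes, array weights passed 1, and leaving out an array passed 0 to 1 (1 without WT replicate 1 and 1 without WT replicate 3), where the deposited values passed 0. The median difference of the 36 genes ranged from −0.14 to 0.02 with an array left out (0.02 without WT replicate 1), and the number lower from 14 to 27. The number lower at an unadjusted p under 0.05 was 4, and 2 to 4 with an array left out (2 without MKO replicate 1, MKO replicate 2 or WT replicate 2), 2 for genes above the median level (15 of 22 lower there), 1 for the median of probe sets (Cd68) and 2 for probe sets above the median level. The number higher was 1 without a variance trend (Ccr2) and 1 for probe sets above the median level (Clec10a). For Clec10a only probe set 17251992 lay above that level. Cd68 kept an unadjusted p under 0.05 in all 16. Over all genes the unadjusted counts were 558 lower and 444 higher, 1000 and 805 with array weights, and 354 and 545 with median centring. They were 371 and 129 when only the genes above the median level were tested, a smaller set whose counts do not compare directly. With an array left out, 393 to 975 were lower (975 without MKO replicate 3). Of the probe sets of the 36 genes, 13 were lower at an unadjusted p under 0.05, and 7 to 23 with an array left out. There were 23 without MKO replicate 3, 7 without WT replicate 1 and 8 without WT replicate 2. The shares of all rows under these settings were not counted. Over all genes the lower count moved too, to 975 without MKO replicate 3, 393 without WT replicate 1 and 400 without WT replicate 2.

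In 23 of the 36 genes the sign changed under at least 1 alternative, Msr1, Cd74, Ccr2 and H2-Ab1 among them. They came with the LPE test (Cd14 0.17, Cybb 0.07, Fcgr2b −0.15, H2-Ab1 0.08, Mrc1 0.20, Ms4a7 −0.01), array weights (Aif1 −0.11, Cd14 0.04, Ctss −0.01, Fcgr3 −0.04, Lyz1 0.06), median centring (Cybb 0.01, Lyz1 0.02) and quantile normalization (Cybb 0.01). The median of probe sets turned Aif1 to −0.68, Cd163 to −0.16, Cd83 to −0.12, Cybb to 0.18, Emr1 to 0.00, H2-Eb1 to −0.03 and Tyrobp to 0.35. Probe sets above the median level turned Ccr2 to −0.22, Cd163 to −0.06, Cd83 to −0.18, Cybb to 0.05, Emr1 to 0.29, Msr1 to 0.41, Ptprc to 0.14 and Tyrobp to 0.10. For Msr1 that value rests on probe set 17508854 alone. With an array left out, the ranges that crossed or reached 0 were −0.12 to 0.26 for Aif1, −0.16 to 0.17 for Cd14, −0.04 to 0.25 for Cd163, −0.64 to 0.00 for Cd74, −0.06 to 0.32 for Clec10a, −0.05 to 0.09 for Ctss, −0.02 to 0.12 for Cx3cr1, −0.13 to 0.17 for Cybb, −0.24 to 0.08 for Emr1, −0.14 to 0.11 for Fcgr2b, −0.19 to 0.22 for Fcgr3, −0.32 to 0.07 for H2-Aa, −0.36 to 0.05 for H2-Ab1, −0.14 to 0.10 for Lyz1, −0.30 to 0.06 for Lyz2, −0.18 to 0.17 for Mrc1, −0.10 to 0.11 for Ms4a7, −0.34 to 0.03 for Ptprc and −0.26 to 0.08 for Tyrobp. The cause was not tested.

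With the replicate number as a block, 4 of the 36 genes were lower at an unadjusted p under 0.05 and 0 passed, and over all genes 474 were lower and 399 higher. Deviations of same-numbered mice from their group means correlated at −0.088, 0.091 and −0.236. Those of differently numbered mice ran from −0.226 to 0.296. With 3 mice per group, these values cannot decide whether the numbers paired the mice. The highest correlation was 0.296, between MKO replicate 1 and WT replicate 3.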

Other observations

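Single probe sets of some genes with a small mean difference were higher or lower in MKO by more than 1 log2 unit. Probe set 17227549 of Ptprc read 3.89, 4.46 and 4.31 in MKO, against 1.08, 2.37 and 2.96 in WT. Probe set 17367124 of Mrc1 read 4.98, 4.62 and 3.32 in MKO, against 1.21, 2.14 and 2.18 in WT. Probe set 17339030 of Emr1 read 2.65, 1.41 and 2.80 in MKO, against 4.31, 4.61 and 4.20 in WT, and probe set 17351065 of Csf1r read 5.11, 4.46 and 5.25 in MKO, against 5.94, 6.37 and 6.92 in WT. In all 4 the groups did not overlap, and the limma p adjusted over all rows was 0.977. They were chosen after their values were seen, as the 4 of 354 probe sets with an unadjusted p under 0.01, against 0.918% of all rows. The 3 MKO arrays lay below the 3 WT arrays in 5.05% of all rows and above them in 4.81%.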
